A study of Mus musculus with 69 samples.

Results

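The 36 genes described here are markers of T cells and natural killer (NK) cells together with Raet1e, the gene of a ligand that these cells recognise. They were taken by symbol from the 55367 gene symbols measured in mouse liver RNA, and all 36 were present. A filter on low counts kept 17059 genes, of which 33 were members, while Gzmk, Ncr1 and Ifng did not pass it. The livers came from C57/Bl6J mice on a high-fat diet (HFD), every one labelled with the genotype J1 J2 lf/lf, in a design named hepatocyte-specific for spliceoforms of the c-Jun N-terminal kinases JNK1 and JNK2. The control group (LJ1J2control) is tied to green fluorescent protein (GFP), JNK7a (LJ1J27a) to the recombinase CRE and JNK7b (LJ1J27b) to the recombinase FLPO. Each comparison with control therefore also differs in that protein. The promoter and route by which these proteins reached the liver, the age of the mice and the light schedule were not stated in what was read here, nor is it said whether a group's name gives the spliceoform kept or lost. Sampling ran over 8 clock hours spaced 3 h apart (2, 5, 8, 11, 14, 17, 20 and 23). Control had 24 libraries, JNK7a 22 and JNK7b 23, each hour of a group being covered by 2 to 4 of them.

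T cells recognise peptides with a T cell receptor whose signal runs through the CD3 chains, the coreceptors CD4 or CD8 and the kinases LCK and ZAP70. NK cells and cytotoxic T cells kill through perforin and granzymes and read activating ligands on target cells, such as the RAE-1 proteins, through the receptor NKG2D. The liver of a mouse holds resident and passing lymphocytes of both kinds, and JNK in hepatocytes is known from mouse studies for its roles in stress signalling and metabolism.

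Libraries held between 26.8 M and 48.6 M estimated counts, with a median of 32.7 M, and mitochondrial transcripts took 10.5% to 16.0% of TPM (a level scaled for transcript length). The gene of JNK1, Mapk8, lay between 13.1 and 22.7 CPM (counts relative to the scaled library size) in control, 9.54 and 23.5 CPM in JNK7a and 12.8 and 21.2 CPM in JNK7b. Mapk9, the gene of JNK2, lay between 14.2 and 61.1, 28.9 and 47.1, and 36.6 and 68.2 CPM, and control 8 h replicate 3 held the lowest of these values. Both genes were called lower in JNK7a than in control (log2 -0.28, adjusted p = 0.0023 and log2 -0.27, adjusted p = 0.00515) and higher in JNK7b than in JNK7a (0.28, adjusted p = 0.00382 and 0.45, adjusted p = 8.0e-06). Neither passed in JNK7b against control (adjusted p = 1.00 and 0.116). A gene-level value adds both spliceoforms, so it does not show which one a library holds. Control 8 h replicate 3 and JNK7b 5 h replicate 2 stood apart in an earlier analysis of these data. No label states that each library is another animal; the p-values then reflect only the scatter of these libraries, which may be technical.

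As levels per length, the members were low. Zap70 had the highest mean over all libraries, 8.06 TPM, followed by Raet1e at 5.16 TPM, the chemokine gene Ccl5 at 5.13 TPM, the T cell receptor constant gene Trbc2 at 1.57 TPM and Thy1 at 1.24 TPM. The other 31 members were under 1 TPM, down to 0.0423 TPM for Eomes. Of the 36 members, 28 had a median below 20 counts per library, 14 had a count in every library and 22 were at 0 in at least 1 library. Among the defining T cell genes, Cd3g, Trac and Trbc2 were detected in all 69 libraries. Gzmk was at 0 in 36 libraries, Ifng in 37, Eomes in 24 and the NK cell receptor gene Ncr1 in 23. Zap70 did not share the low level of its partners: its median of 247 counts per library compared with 21 for Lck and 13 for Cd3g. In bulk tissue, fewer cells of a type and less RNA per cell cannot be told apart.

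Cd8a, Gzmb and Ccl5, genes of cytotoxic and activated lymphocytes, rose against control in JNK7a and in JNK7b, while Raet1e fell in JNK7a and rose in JNK7b. The words rose, fell and called are kept for genes with an adjusted p below 0.05 (edgeR quasi-likelihood test of the mean difference over the 8 clock hours, Benjamini-Hochberg over all 17059 genes). In JNK7a, 9 of 33 members were called higher, against 8.31% of all genes, and 1 was called lower, against 9.56%. In JNK7b, 5 of 33 were called higher (Cd8a, Ccl5, Gzma, Gzmb and Raet1e), against 5.60% of all genes, and Cd4 was the 1 called lower, against 5.74%. Between the recombinase groups, 1 member was higher in JNK7b than in JNK7a (9.29% of all genes) and 2 were lower (9.35%). The median log2 fold change of the 33 members was 0.61 in JNK7a against control, with 31 above 0, and 0.48 in JNK7b against control, with 28 above 0. Over all genes tested these medians were 0.0015 and -0.0035. JNK7b against JNK7a had a median of -0.11 over the members, with 7 above 0, and -0.0036 over all genes. The 2 comparisons with control share the control libraries, so they are not independent of each other.

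**Figure D1:**
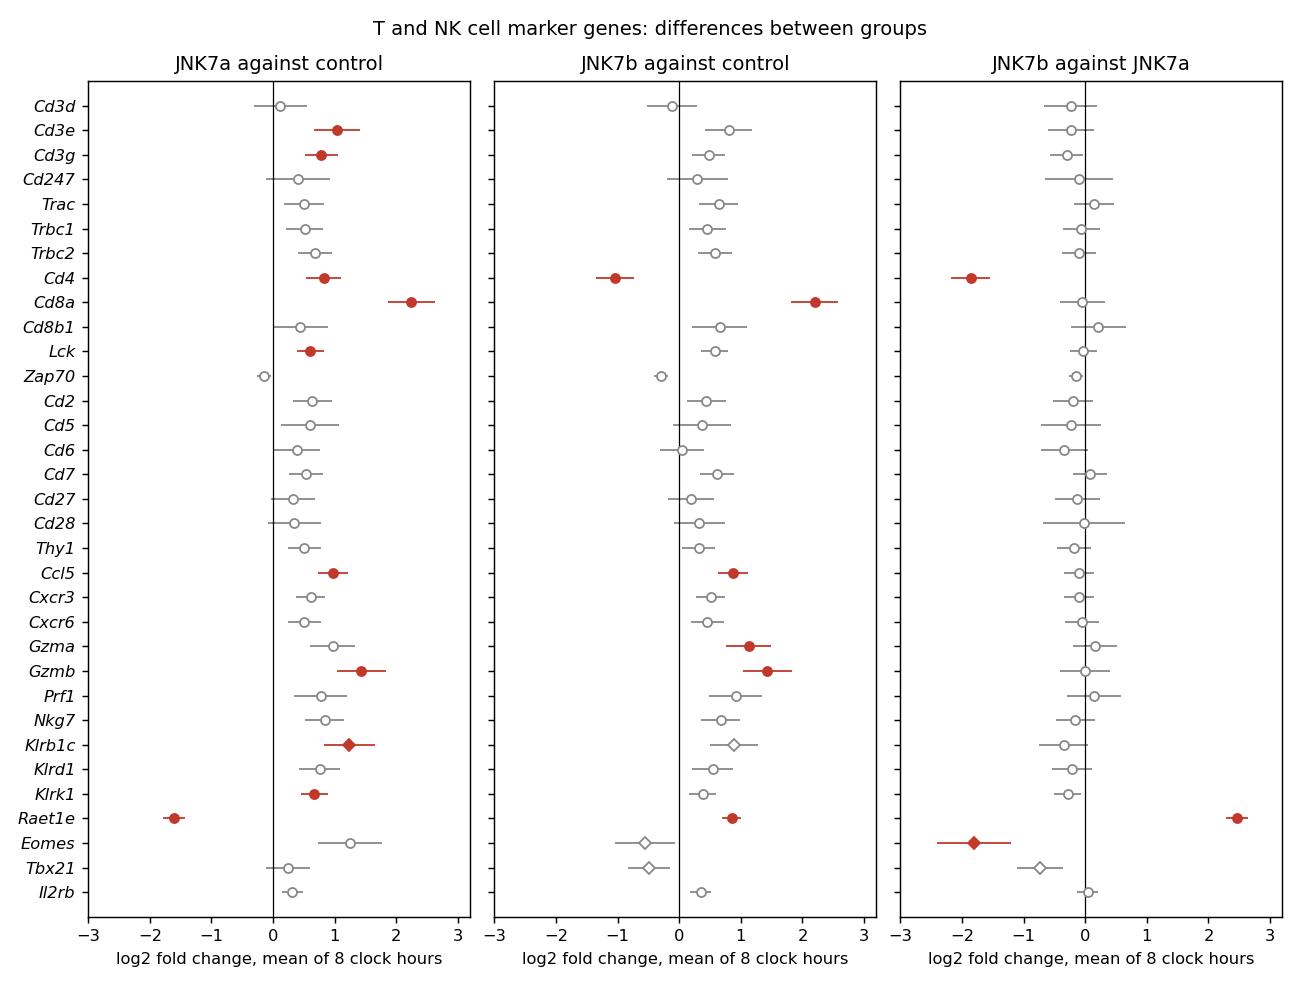
Log2 fold change of each of the 33 tested members, averaged over 8 clock hours, with horizontal bars of 1 standard error. Filled red marks are called at an adjusted p below 0.05 and open grey marks are not; diamonds mark genes with a group and hour at 0, whose value depends on the prior count. Cd8a stands farthest to the right in both comparisons with control (2.24 and 2.20), and Raet1e lies on opposite sides of 0 in them (-1.61 and 0.85).

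The T cell receptor complex was described by 7 members: the CD3 genes Cd3d, Cd3e and Cd3g, the zeta chain gene Cd247 and the receptor constant regions Trac, Trbc1 and Trbc2. Cd3e ran from 0 through a median of 0.179 to 0.881 CPM in control, from 0.0259 through 0.430 to 1.30 CPM in JNK7a and from 0 through 0.397 to 1.18 CPM in JNK7b. The 3 ranges overlapped, with the JNK7a and JNK7b medians above that of control. Cd3e rose in JNK7a (log2 1.03 ± 0.38, standard error, adjusted p = 0.0468) and was at 0.80 ± 0.38 in JNK7b (adjusted p = 0.177). Cd3g was at 0.0365, 0.297 and 1.48 CPM (lowest, median and highest) in control, 0.0863, 0.498 and 1.55 CPM in JNK7a and 0.0356, 0.491 and 1.23 CPM in JNK7b. Its ranges overlapped as well, and it rose in JNK7a (log2 0.78 ± 0.27, adjusted p = 0.0328) but did not pass in JNK7b (0.48 ± 0.27, adjusted p = 0.280). The remaining 5 genes passed in neither comparison with control, with log2 fold changes from 0.12 (Cd3d) to 0.68 (Trbc2) in JNK7a and from -0.11 (Cd3d) to 0.64 (Trac) in JNK7b. Summed over the 7 genes, the level lay between 1.47 and 11.4 TPM in control (median 3.13), 1.86 and 12.6 TPM in JNK7a (median 5.01) and 1.77 and 10.9 TPM in JNK7b (median 5.16). Both calls were near the threshold. Cd3e was not called in 27 of the 69 fits that each left out 1 library (adjusted p up to 0.237, without JNK7a 23 h replicate 2). Cd3g was not called without control 2 h replicate 1, control 23 h replicate 1, JNK7a 5 h replicate 2, JNK7a 14 h replicate 1, JNK7a 17 h replicate 2, JNK7a 20 h replicate 1 or JNK7a 23 h replicate 2 (adjusted p up to 0.0884). Of 13 other settings, Cd3e was called under 7 and Cd3g under 10.

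**Figure D2:**
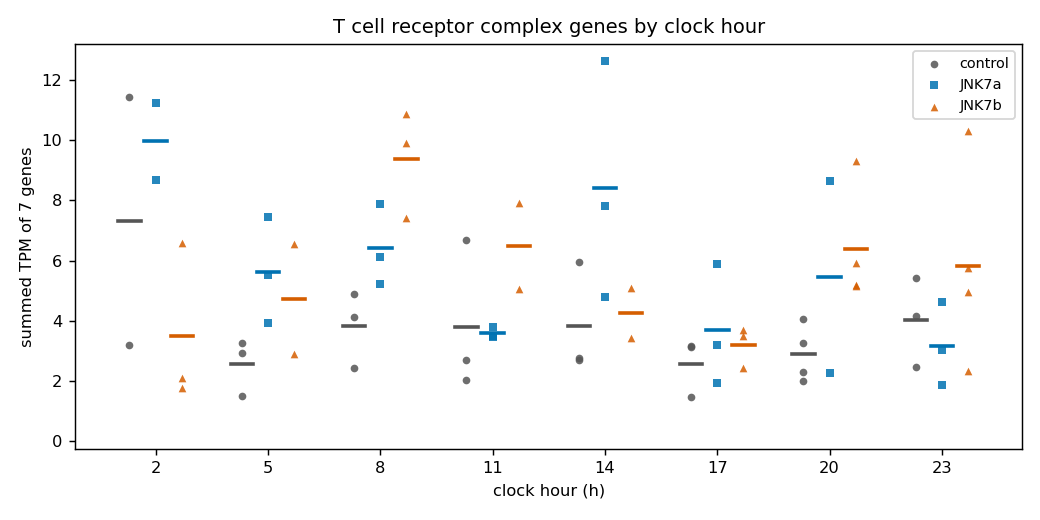
Summed level (TPM, vertical axis) of the 7 T cell receptor complex genes in each library by clock hour (horizontal axis); points are libraries and short bars are means of a group and hour. Control values lie between 1.47 and 11.4 TPM, and the 3 groups overlap, with medians of 3.13 in control, 5.01 in JNK7a and 5.16 in JNK7b.

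The coreceptor gene Cd8a had the largest log2 fold change of any member called higher against control. CD8 alpha marks cytotoxic T cells and, in mice, is also made by a subset of dendritic cells. Its CPM ran from 0 through a median of 0.101 to 0.659 in control, from 0.0254 through 0.330 to 1.61 in JNK7a and from 0.0746 through 0.426 to 2.17 in JNK7b. The ranges overlapped over the whole day, but at 5 of 8 clock hours every JNK7a library was above every control library, and at 5 of 8 hours every JNK7b library was, while at clock hour 5 every JNK7b library was below. Cd8a rose on the log2 scale by 2.24 ± 0.38 in JNK7a (adjusted p = 1.0e-05) and 2.20 ± 0.38 in JNK7b (adjusted p = 3.1e-05). It was called in every fit that left out 1 library, with log2 fold changes of 1.74 to 2.64 and 1.98 to 2.60. With only clock hours 2, 5, 14 and 17 it was not called in JNK7b (log2 1.13, edgeR adjusted p = 0.704). With only clock hours 8, 11, 20 and 23 it was at log2 3.27 there and was called. In JNK7a Cd8a was called with either set of hours. A filter of a mean of at least 1 CPM removed Cd8a before testing. Cd8b1, the neighbouring gene of the CD8 beta chain, was at a median of 0.110 CPM in control, 0.152 in JNK7a and 0.219 in JNK7b. It passed in neither comparison (log2 0.44 ± 0.44, adjusted p = 0.583 and 0.66 ± 0.44, adjusted p = 0.395).

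Cd4, the coreceptor gene of helper T cells, was lower in JNK7b than in both other groups. It ran from 0.162 through a median of 1.16 to 5.05 CPM in control, from 1.04 through 2.53 to 7.76 CPM in JNK7a and from 0.182 through 0.607 to 3.60 CPM in JNK7b. JNK7b was the low group, and at 6 of 8 clock hours every JNK7b library was below every JNK7a library. Between JNK7b and JNK7a, Cd4 fell on the log2 scale (-1.86 ± 0.31, adjusted p = 8.0e-06), with that sign at 8 of 8 hours. Against control it rose in JNK7a (0.82 ± 0.29, adjusted p = 0.0378) and fell in JNK7b (-1.04 ± 0.30, adjusted p = 0.0160). The difference between JNK7b and JNK7a was called in every fit that left out 1 library. The rise in JNK7a was not called once the libraries that stood apart were both removed (log2 0.80, adjusted p = 0.0503), nor in 18 of 69 fits without 1 library, and the fall in JNK7b was not called without control 14 h replicate 3 (log2 -0.70, adjusted p = 0.0896). The fall was also not called with the replicate block (adjusted p = 0.183), with voom (0.0857), on either log2 TPM scale (0.130 and 0.0664) or in either set of 4 clock hours (0.114 and 0.539). The rise was called under 9 of 14 other settings. Cd4 had a median of 41 counts per library, against 13 for Cd3g and 11 for Cd3e. In JNK7b against control its sign was opposite to that of the 28 of 33 members above 0. Which cells held the Cd4 RNA was not tested, so its fall does not show fewer helper T cells.

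The kinase gene Lck, whose protein phosphorylates the CD3 chains, lay between 0.117 and 2.13 CPM in control (median 0.488), 0.277 and 2.21 CPM in JNK7a (median 0.731) and 0.207 and 2.42 CPM in JNK7b (median 0.775). The groups overlapped. It rose in JNK7a (log2 0.61 ± 0.22, adjusted p = 0.0464) and was at 0.58 ± 0.22 in JNK7b (adjusted p = 0.0792), and the JNK7a call was absent without both libraries that stood apart and in 29 of 69 fits that left out 1 library (adjusted p up to 0.175, without JNK7a 20 h replicate 1). Of 13 other settings, 5 called it. Zap70, the gene of the kinase that binds phosphorylated CD3 and zeta chains, lay between 3.06 and 13.5 CPM in control (median 8.57), 4.32 and 11.4 CPM in JNK7a (median 7.00) and 2.49 and 11.5 CPM in JNK7b (median 6.72). It passed in neither comparison with control (-0.15 ± 0.11, adjusted p = 0.428 and -0.30 ± 0.11, adjusted p = 0.0845), and its fold changes were below 0 where those of Lck were above.

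**Figure D3:**
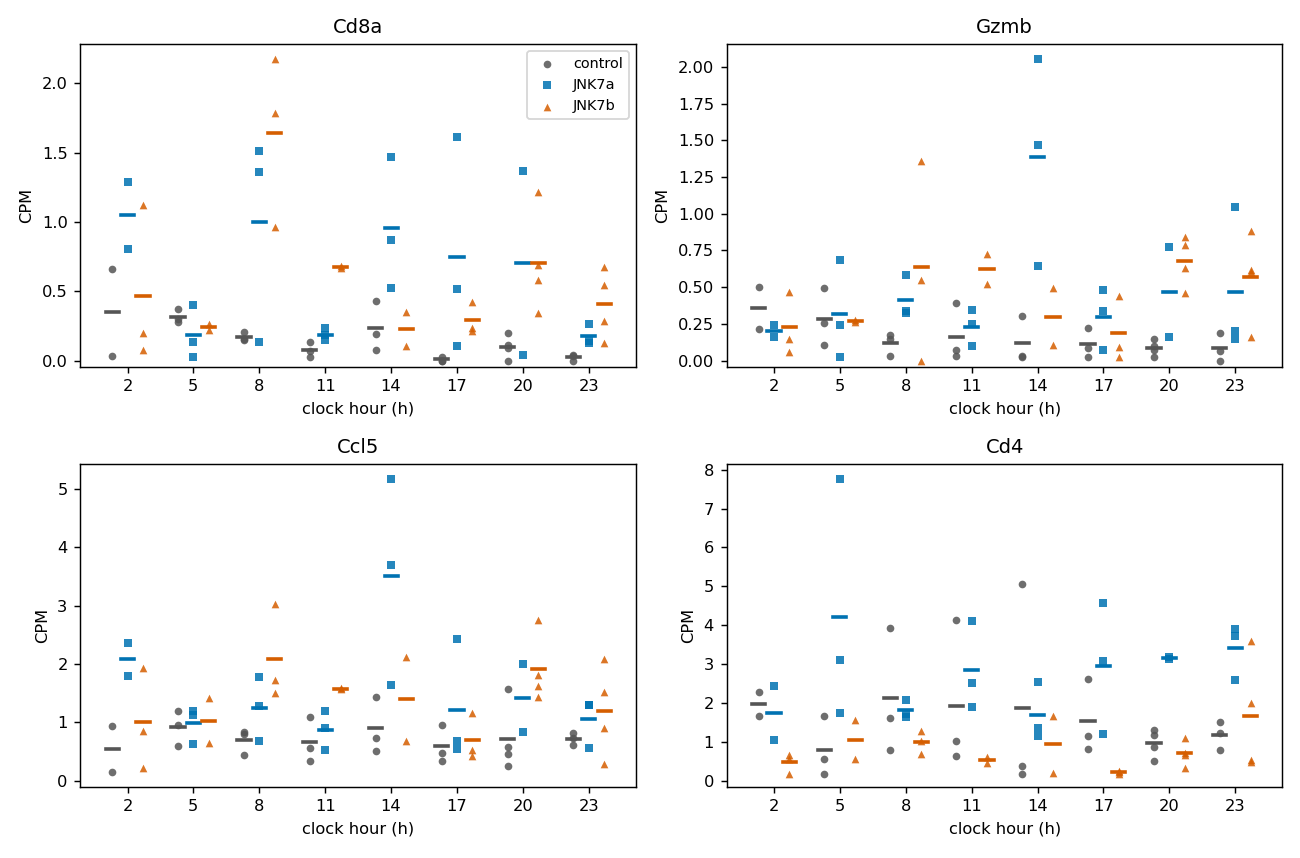
CPM (vertical axes) of Cd8a, Gzmb, Ccl5 and Cd4 in each library by clock hour (horizontal axes); points are libraries and short bars are means of a group and hour. Cd8a reached 0.659 CPM in control and 2.17 CPM in JNK7b, and Cd4 was lowest in JNK7b, with a median of 0.607 CPM against 2.53 CPM in JNK7a.

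None of the 7 surface and costimulatory receptor genes was called in any of the 3 comparisons by edgeR or by DESeq2. At an unadjusted p below 0.05 the edgeR test had 1 in JNK7a, 1 in JNK7b and 0 between JNK7b and JNK7a. These were the adhesion receptor gene Cd2, Cd5, Cd6, Cd7, the costimulatory receptor genes Cd27 and Cd28, and Thy1, which encodes a membrane glycoprotein of mouse T cells. All 7 had log2 fold changes above 0 against control, with medians of 0.50 in JNK7a and 0.33 in JNK7b. Thy1 was the most expressed, at 0.312, 0.834 and 2.16 CPM (lowest, median and highest) in control, 0.330, 1.23 and 3.15 CPM in JNK7a and 0.535, 1.07 and 2.94 CPM in JNK7b. Its ranges overlapped, with log2 0.50 ± 0.27 in JNK7a (adjusted p = 0.210) and 0.32 ± 0.27 (adjusted p = 0.522). Cd7 followed at 0.698 TPM over all libraries, with 0.54 ± 0.28 (adjusted p = 0.195) and 0.62 ± 0.27 (adjusted p = 0.147).

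Ccl5 encodes a chemokine that activated T cells and NK cells release, and Cxcr3 and Cxcr6 encode chemokine receptors of such cells. Ccl5 was at 0.141, 0.673 and 1.58 CPM (lowest, median and highest) in control, 0.530, 1.24 and 5.17 CPM in JNK7a and 0.224, 1.5 and 3.03 CPM in JNK7b. The ranges overlapped, and every control library was at or below 1.58 CPM. Ccl5 rose in JNK7a (log2 0.98 ± 0.24, adjusted p = 0.00223) and in JNK7b (0.87 ± 0.24, adjusted p = 0.0108), with the same sign at 8 of 8 clock hours in both. It was called in every fit that left out 1 library. In JNK7b it was not called with the replicate block or with only clock hours 2, 5, 14 and 17 (log2 0.50, edgeR adjusted p = 0.840). In JNK7a it was not called with only clock hours 8, 11, 20 and 23 (log2 0.69, edgeR adjusted p = 0.174). Cxcr3 was at 0.61 ± 0.24 in JNK7a (adjusted p = 0.0654) and 0.51 ± 0.24 in JNK7b (adjusted p = 0.171). Cxcr6 was at 0.51 ± 0.27 (adjusted p = 0.212) and 0.45 ± 0.27 (adjusted p = 0.313), so neither receptor gene passed.

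Of the genes of cytotoxic granules, Gzma and Gzmb encode granzymes, the serine proteases that enter target cells, Prf1 the pore protein perforin and Nkg7 a granule membrane protein. Gzmb ran from 0 through a median of 0.103 to 0.502 CPM in control, from 0.0269 through 0.329 to 2.05 CPM in JNK7a and from 0 through 0.470 to 1.36 CPM in JNK7b. At clock hour 14 the 3 JNK7a libraries had 0.644 to 2.05 CPM, against 0.0257 to 0.306 CPM in the 3 control libraries of that hour. JNK7a 23 h replicate 2 (1.05 CPM), 20 h replicate 1 (0.771 CPM) and 5 h replicate 2 (0.685 CPM) were also above 0.644 CPM. Gzmb rose in JNK7a (log2 1.43 ± 0.40, adjusted p = 0.00694) and in JNK7b (1.43 ± 0.40, adjusted p = 0.0110). Gzma was at 0, 0.133 and 0.601 CPM (lowest, median and highest) in control, 0, 0.292 and 1.33 CPM in JNK7a and 0.0477, 0.342 and 1.26 CPM in JNK7b, so the ranges overlapped. It rose in JNK7b (log2 1.13 ± 0.36, adjusted p = 0.0309) and did not pass in JNK7a (0.97 ± 0.36, adjusted p = 0.0570). Nkg7, at 0.84 ± 0.32 in JNK7a (adjusted p = 0.0609) and 0.68 ± 0.32 in JNK7b (adjusted p = 0.178), and Prf1, at 0.77 ± 0.43 (adjusted p = 0.239) and 0.92 ± 0.43 (adjusted p = 0.178), passed in neither. Gzmk did not pass the filter and had a highest value of 0.388 CPM. Gzma lost its call without control 2 h replicate 2, JNK7b 2 h replicate 3, JNK7b 5 h replicate 2, JNK7b 8 h replicate 3, JNK7b 11 h replicate 2 or JNK7b 14 h replicate 1 (adjusted p up to 0.194), and Gzmb in JNK7b without JNK7b 14 h replicate 1 (adjusted p = 0.0506). In JNK7b, Gzma was called under 11 and Gzmb under 10 of 13 other settings.

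The 250 bases before the start of the 2 granzyme genes that rose are given here from RefSeq (GRCm38.p6), 5′ to 3′ on the strand of the gene, because both hold motifs out of the 6 that were searched on both strands. Gzma lies on the minus strand at chr13:113100982-113101231 and Gzmb on the minus strand at chr14:56262335-56262584. Capitals mark the matches: in Gzma an interferon response element and a RUNX motif, in Gzmb an AP-1 motif and a RUNX motif.
Gzma: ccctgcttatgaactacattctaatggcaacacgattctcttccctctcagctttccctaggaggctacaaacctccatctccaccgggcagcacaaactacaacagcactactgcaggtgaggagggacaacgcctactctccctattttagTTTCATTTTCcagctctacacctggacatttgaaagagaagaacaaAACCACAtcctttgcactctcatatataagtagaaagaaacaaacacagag
Gzmb: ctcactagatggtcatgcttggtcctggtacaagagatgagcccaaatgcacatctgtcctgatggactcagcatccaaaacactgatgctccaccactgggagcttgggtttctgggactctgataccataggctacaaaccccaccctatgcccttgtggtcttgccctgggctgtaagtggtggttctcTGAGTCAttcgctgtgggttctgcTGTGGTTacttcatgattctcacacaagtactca
AP-1, the factor family that includes the JNK substrate c-Jun, was searched as TGANTCA and is present in 6.75% of 32851 promoter windows of this length. The interferon response element was found in 2.98% of windows, RUNX as TGTGGTT (4.4%), the T-box motif as GGTGTGA (3.33%), the κB motif by its consensus (1.41%) and the E-box as CACGTG (6.02%). Of the 36 members, 23 had a promoter in the table, and RUNX was found in 5 of these (Gzma, Gzmb, Klrk1, Lck and Ncr1), AP-1 in Gzmb, the interferon response element in Gzma and Eomes and the T-box motif in Gzmk and Nkg7. The κB motif and the E-box were found in none of the 23. The promoters printed were chosen after the matches were seen, and a match is a run of letters, not a measured site.

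Among the NK receptor genes, Klrk1 encodes NKG2D, the receptor of the Raet1e product, Klrd1 encodes CD94, Klrb1c encodes NK1.1 and Ncr1 encodes NKp46. Klrk1 was at 0.257, 0.600 and 1.77 CPM (lowest, median and highest) in control, 0.137, 1.13 and 3.31 CPM in JNK7a and 0.302, 1.03 and 2.35 CPM in JNK7b. The ranges overlapped, and Klrk1 rose in JNK7a (log2 0.67 ± 0.22, adjusted p = 0.0224) but did not pass in JNK7b (0.38 ± 0.22, adjusted p = 0.287). Klrb1c was at 0 in 5 control libraries, among them all 3 of clock hour 17, with a control median of 0.133 CPM and highest value of 0.833 CPM. In JNK7a its lowest, median and highest values were 0, 0.261 and 1.06 CPM, and in JNK7b 0.0233, 0.207 and 0.606 CPM. Klrb1c was called higher in JNK7a (adjusted p = 0.0274) and not in JNK7b (adjusted p = 0.149); its fold depends on the prior count and is not given. Klrd1, at 0.76 ± 0.33 in JNK7a (adjusted p = 0.115) and 0.54 ± 0.34 in JNK7b (adjusted p = 0.344), did not pass. Ncr1 was not tested and reached at most 0.286 CPM. Klrk1 in JNK7a was not called without control 2 h replicate 1 or JNK7a 8 h replicate 1 (adjusted p up to 0.0607) and was called under 11 of 14 other settings. Klrb1c was called under 8 of 13 other settings and not with an additive design (adjusted p = 0.192), voom (0.0877), either log2 TPM scale (0.122 and 0.103) or only clock hours 8, 11, 20 and 23 (0.858), where its sign turned. It was also not called without control 2 h replicate 1, JNK7a 5 h replicate 2 or JNK7a 20 h replicate 1 (adjusted p up to 0.0913).

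The transcription factor genes Eomes and Tbx21, whose products direct cytotoxic programmes, the receptor gene Il2rb for interleukins 2 and 15 and the cytokine gene Ifng passed in neither comparison with control. Il2rb was the most expressed of these, at 0.548, 1.29 and 3.74 CPM (lowest, median and highest) in control, 0.584, 1.54 and 3.84 CPM in JNK7a and 0.758, 1.72 and 3.23 CPM in JNK7b. The groups overlapped (log2 0.31 ± 0.17, adjusted p = 0.225 and 0.35 ± 0.17, adjusted p = 0.188). Eomes was called lower in JNK7b than in JNK7a (adjusted p = 0.0265), at 0, 0.0546 and 0.260 CPM against 0, 0.131 and 0.351 CPM. Every JNK7b library of clock hours 5 and 14 was at 0, so no fold is given, and with an additive design Eomes was not called (adjusted p = 0.122). It was also not called without JNK7a 11 h replicate 1 (adjusted p = 1.00) or JNK7b 5 h replicate 1 (adjusted p = 0.0536), and 7 of 12 other settings called it. Tbx21 had medians of 0.113, 0.177 and 0.186 CPM in control, JNK7a and JNK7b, and Ifng, which was not tested, reached at most 0.462 CPM.

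Raet1e, the only member that marks the target cell rather than the lymphocyte, had the smallest adjusted p of the members in JNK7a against control and in JNK7b against JNK7a. It encodes RAE-1 epsilon, a surface ligand of mouse NKG2D that is known to appear on stressed cells. Raet1e was at 0.845, 3.35 and 14.4 CPM (lowest, median and highest) in control, 0.404, 1.13 and 3.03 CPM in JNK7a and 2.31, 4.95 and 24.6 CPM in JNK7b. JNK7a was the low group: at 7 of 8 clock hours every JNK7a library was below every control library, and at 8 of 8 hours every JNK7a library was below every JNK7b library. Raet1e fell in JNK7a against control (log2 -1.61 ± 0.17, adjusted p = 5.2e-10), rose in JNK7b against control (0.85 ± 0.16, adjusted p = 1.2e-04) and was higher in JNK7b than in JNK7a (2.46 ± 0.18, adjusted p = 2.7e-15). All 3 calls held in every fit that left out 1 library. Klrk1, the gene of its receptor, was at 0.67, 0.38 and -0.29 in the same comparisons. The rise of Raet1e in JNK7b against control was not the same at all hours. With only clock hours 8, 11, 20 and 23 it was at log2 2.01 and was called. With only clock hours 2, 5, 14 and 17 it was at -0.31 and was not called (edgeR adjusted p = 0.794).

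The Raet1e annotation on mm10 (chromosome 10, 22158569 to 22374139, plus strand, GENCODE vM21) overlaps other genes, among them Raet1d and H60b, which also encode NKG2D ligands. Reads of such related genes can be split between them, so the value of Raet1e alone is uncertain. Mean Raet1d was 14.6 ± 6.30 CPM (SD, n = 24) for control, 4.99 ± 3.00 CPM (n = 22) for JNK7a and 22.2 ± 14.1 CPM (n = 23) for JNK7b. Like Raet1e it fell in JNK7a (log2 -1.64 ± 0.16, adjusted p = 1.1e-10) and rose in JNK7b (0.52 ± 0.15, adjusted p = 0.0186), and it differed by 2.15 ± 0.17 (adjusted p = 4.9e-14) between JNK7b and JNK7a. H60b did not pass the filter and was at 0 in 22 of 24 control libraries. RefSeq gives Raet1e a pair of starts, and the 250 bases before each are printed because this gene had the largest difference among the members (GRCm38.p6, plus strand, chr10:22158319-22158568 and chr10:22173247-22173496). Neither held any of the 6 motifs, so no letter is in capitals.
Raet1e start 1: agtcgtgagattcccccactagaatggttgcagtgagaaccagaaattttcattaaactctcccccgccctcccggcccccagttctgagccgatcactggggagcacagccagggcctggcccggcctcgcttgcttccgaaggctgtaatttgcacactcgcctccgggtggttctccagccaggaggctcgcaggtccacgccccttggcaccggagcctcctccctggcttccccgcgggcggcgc
Raet1e start 2: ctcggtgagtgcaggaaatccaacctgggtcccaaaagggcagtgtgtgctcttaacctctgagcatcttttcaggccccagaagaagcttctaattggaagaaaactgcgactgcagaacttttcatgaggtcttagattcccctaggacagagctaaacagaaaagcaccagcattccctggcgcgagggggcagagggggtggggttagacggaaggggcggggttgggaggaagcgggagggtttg

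The differences of Raet1e varied with the hour of the day. In JNK7b the 3 libraries at clock hour 8 had 12.2, 15.8 and 19.9 CPM and the 2 at clock hour 11 had 16.4 and 24.6 CPM. At clock hour 20 they had 4.95, 8.32, 8.54 and 14.1 CPM, and at clock hour 23 they had 4.67, 4.76, 9.97 and 10.7 CPM. At clock hours 2, 5, 14 and 17 the JNK7b values lay between 2.31 and 5.30 CPM. The values of 4.95 CPM at clock hour 20 and 4.67 and 4.76 CPM at clock hour 23 fell within that range. Only at clock hours 8 and 11 was every JNK7b library above it. Control was highest at clock hour 5, with 6.61, 7.88 and 14.4 CPM, and JNK7a stayed at or below 3.03 CPM at every hour. Every JNK7b library was above every control library at clock hours 8, 11, 20 and 23 and below at clock hours 5 and 14. The F test of the 7 interaction contrasts called Raet1e for JNK7b against control (adjusted p = 7.0e-04) and for JNK7b against JNK7a (adjusted p = 0.0187). It was the 1 member of 33 called in each, against 1.32% and 1.78% of all genes, and no member was called for JNK7a against control, where 0.00586% of all genes were. Of those 33, 4 had an unadjusted p below 0.05 in the edgeR test.

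**Figure D4:**
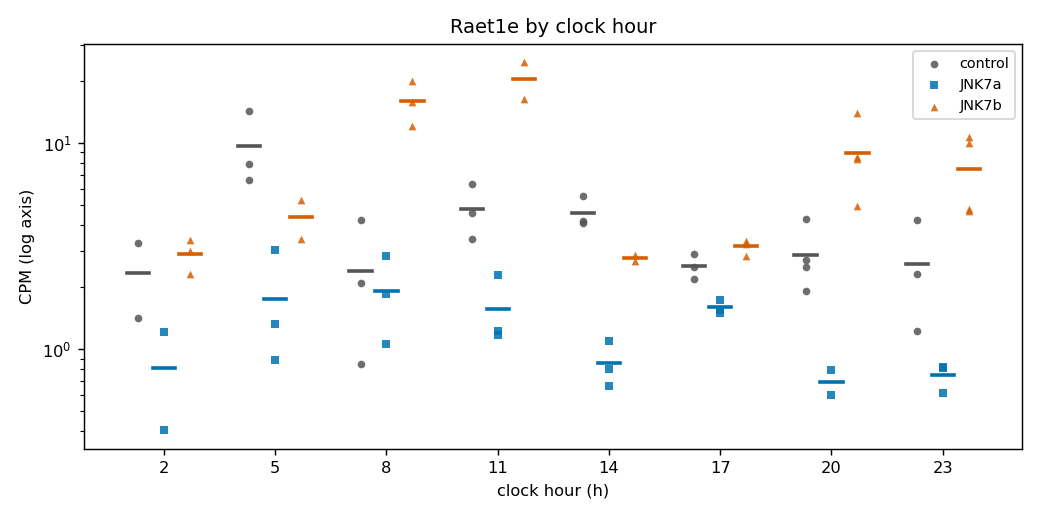
CPM of Raet1e (vertical log axis) in each library by clock hour (horizontal axis); points are libraries and short bars are means of a group and hour. JNK7b lay between 12.2 and 24.6 CPM at clock hours 8 and 11 and between 2.31 and 5.30 CPM at clock hours 2, 5, 14 and 17, and JNK7a was at or below 3.03 CPM throughout.

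The same division of hours was seen in the counts of called members for JNK7b, and it was seen across all genes too. With only clock hours 8, 11, 20 and 23, 10 of 33 members were called higher in JNK7b than in control, against 9.53% of all genes. They were Trac, Cd8a, Ccl5, Gzma, Gzmb, Prf1, Nkg7, Klrk1, Raet1e and Il2rb, and Zap70 was the 1 called lower (8.27% of all genes). With only clock hours 2, 5, 14 and 17, 0 of 33 were called higher, against 0.0293% of all genes, and 0 lower, against 0.0410% (3 members had an unadjusted p below 0.05 in either direction by edgeR), and the median log2 fold change of the members was 0.11 in place of 0.77. JNK7a had 2 members called higher in the first set (3.53% of all genes) and 4 in the second (4.48%), with medians of 0.40 and 0.82. Raet1e was the 1 called lower there in each set (3.93% and 5.99% of all genes). The sets were chosen with earlier results of these data known, and the interaction test for single genes called only Raet1e among the members, so for the others no difference between the sets was shown. In the test of a 24 h cosine, Lck in control was the 1 member called (adjusted p = 0.0426, log2 amplitude 0.72, peak at 3.4 h), against 19.5% of all genes. No member was called by edgeR in JNK7a (21.7% of all genes, 2 members at an unadjusted p below 0.05) or JNK7b (14.1%, 1 member). Of the 2 control libraries at clock hour 2, replicate 2 had 2.13 CPM of Lck, the highest in control, and replicate 1 had 0.813 CPM. The cosine test was not run without single libraries.

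**Figure D5:**
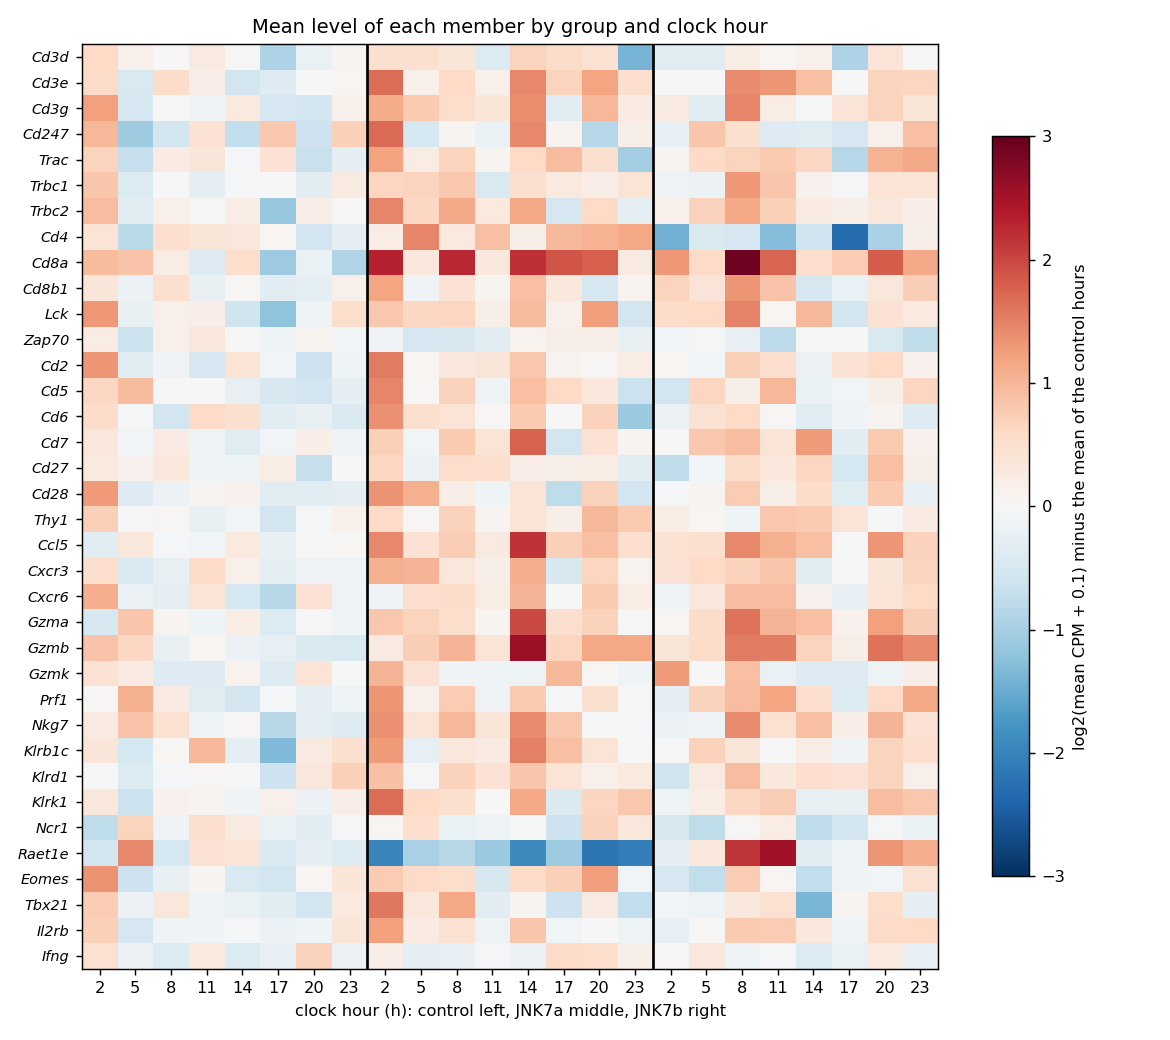
Mean level of each of the 36 members (rows) in the 24 combinations of group and clock hour (columns), as log2(mean CPM + 0.1) minus the gene's mean over the control hours; the colour scale runs from -3 to 3 and the values from -2.3 to 2.92. Cd8a is high in most JNK7a and JNK7b columns, Raet1e is low throughout JNK7a and high in JNK7b at clock hours 8, 11, 20 and 23.

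Lists of related genes were counted in the same fit. Of 32 other T cell genes tested, 5 were higher and 2 lower in JNK7a (median log2 0.39), and 2 were higher in JNK7b (median 0.35). Over all genes 8.31% were higher and 9.56% lower in JNK7a and 5.60% higher in JNK7b, so the counts of 2 were near the background. The 2 that fell in JNK7a were Tox, a factor gene of T cell development (5.83 ± 2.31 CPM in control and 2.00 ± 1.23 CPM in JNK7a, log2 -1.56 ± 0.18, adjusted p = 2.9e-09), and Themis, a gene of thymocyte receptor signalling (7.04 ± 5.01 and 1.49 ± 1.48 CPM, log2 -2.15 ± 0.31, adjusted p = 6.5e-07). Both were also higher in JNK7b than in JNK7a (1.36 ± 0.18 and 2.09 ± 0.31). Mean control levels of Cd3e and Cd3g were 0.233 and 0.334 CPM, below those of Tox and Themis. Which cells held the Tox and Themis RNA was not tested. Bcl11b, a gene of T lineage identity, rose in JNK7a (0.138 ± 0.126 and 0.397 ± 0.370 CPM, log2 1.54 ± 0.37, adjusted p = 0.00162). Ubash3a, which restrains receptor signalling, was called higher in both groups, at 0.0799 ± 0.240 CPM in control, 0.308 ± 0.542 CPM in JNK7a and 0.272 ± 0.422 CPM in JNK7b.

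Of 23 other NK and cytotoxic genes tested, 3 were higher in JNK7a (median log2 0.42, 8.31% of all genes higher) and 2 in JNK7b (median 0.21, 5.60%), and none was lower against control. The interleukin 12 receptor gene Il12rb1 rose in both (log2 1.17 ± 0.21, adjusted p = 2.5e-05 and 0.66 ± 0.21, adjusted p = 0.0305). S1pr5, a receptor gene of NK cell egress, and Klrc2, the gene of NKG2C, rose in JNK7a (0.42 ± 0.11, adjusted p = 0.00474 and 1.53 ± 0.47, adjusted p = 0.0144), and Slamf7 rose in JNK7b (0.81 ± 0.28, adjusted p = 0.0470). Of 10 genes of ligands for NK and T cell receptors, 2 rose and 1 fell in JNK7a (8.31% and 9.56% of all genes). In JNK7b, 4 of them rose (5.60% of all genes). H2-T23, the gene of the NKG2A ligand Qa-1, rose in both (0.28 ± 0.04, adjusted p = 4.2e-06 and 0.37 ± 0.04, adjusted p = 1.7e-08). Cxcl9 and Cxcl10, the genes of interferon-induced ligands of Cxcr3, rose in both groups. They were the 2 of 16 chemokine and cytokine partners called higher in each (8.31% of all genes in JNK7a and 5.60% in JNK7b). Jak3, a kinase gene of cytokine receptor signalling, was the 1 called lower in JNK7a (-0.24 ± 0.08, adjusted p = 0.0265), against 9.56% of all genes. Cxcl10 stood at log2 0.59 ± 0.15 (adjusted p = 0.00258) in JNK7a and 0.73 ± 0.15 (adjusted p = 3.2e-04) in JNK7b, and Cxcl9 at 0.65 ± 0.17 (adjusted p = 0.00457) and 0.68 ± 0.17 (adjusted p = 0.00473).

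Among markers of other cell types, the B and plasma cell list had the highest share called higher against control. Of 13 B and plasma cell markers, 5 rose in JNK7a (8.31% of all genes were called higher) and 4 in JNK7b (5.60%), and their summed level lay between 14.9 and 879 TPM in control (median 49.3), 79.7 and 1740 TPM in JNK7a (median 350) and 24.5 and 916 TPM in JNK7b (median 275). The called genes were those of antibody chains (Igkc, Ighg2b and Ighg2c) and of Jchain, with the plasma cell gene Mzb1 in JNK7a; Mzb1 was at 0 in 6 control libraries, 3 JNK7a and 3 JNK7b libraries. Of 8 pan-leukocyte genes, 0 were called in JNK7a and Cd52 was called higher in JNK7b (5.60% of all genes). Their summed levels were 19.9 to 93.2, 16.9 to 120 and 25.7 to 92.7 TPM in control, JNK7a and JNK7b. Of 15 Kupffer cell and macrophage markers, 1 rose in each group (Marco in JNK7a, Cd68 in JNK7b), a share near that of all genes, with summed levels of 130 to 442, 88.4 to 614 and 190 to 436 TPM. Among 11 dendritic cell markers Itgax rose in JNK7b (5.60% of all genes) and none in JNK7a (8.31%), with 67.4 to 233, 67.4 to 530 and 74.8 to 274 TPM. Of 8 hepatocyte markers, 2 rose in JNK7a (8.31% of all genes) and 5 fell in JNK7b (5.74%). Their summed levels were 63950 to 82867, 58837 to 121290 and 45773 to 74017 TPM. Endothelial and stellate cell markers had 2 of 10 lower in JNK7a, against 9.56% of all genes. Of the neutrophil and the mast cell and basophil markers, 4 of 8 and 2 of 5 passed the filter, and none was called against control. Above 0 against control were 50.25% of all genes in JNK7a and 48.95% in JNK7b. Kupffer cell and macrophage markers had 14 and 15 of 15 above 0 (median log2 0.22 and 0.29). Dendritic cell markers had 10 and 9 of 11 (0.38 and 0.33) and pan-leukocyte genes 7 and 7 of 8 (0.24 and 0.28). B and plasma cell markers had 13 and 10 of 13 (0.73 and 0.14). Of 4 neutrophil markers tested, 2 and 4 were above 0, and of 2 mast cell and basophil markers 0 in each. The part of these cell types in the differences of the T and NK cell markers was not tested.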

How the data were processed

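Liver RNA in 69 libraries (RNeasy extraction with DNase, polyA selection, paired 150-base reads on a NovaSeq6000, per the labels' protocols) was quantified with Salmon after cutadapt on the build mm10, per the submitters' processing notes; their versions and settings were not stated in what was read here. The authors deposited estimated counts scaled for transcript length and TPM values, with replicates not pooled.

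Estimated counts were rounded and tested with edgeR 4.0.16 (R 4.3.3, limma 3.58.1): filterByExpr by group and clock hour, TMM scaling, a robust quasi-likelihood fit of 24 means with 45 residual degrees of freedom, contrasts averaged over the 8 hours, 7 interaction contrasts, and a 24 h cosine per group. CPM are rounded counts relative to the TMM-scaled library size. Standard errors were derived from the F statistic and are approximate. Genes are called at a Benjamini-Hochberg adjusted p below 0.05. A fold averaged over all hours depends on the prior count for a member with a group and hour at 0 and is not quoted. The scripts were tested on simulated data. Of 55487 lines, 234 share a symbol with another.

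Members and lists were chosen with earlier results of these data known. Every member that was called is named, with the 2 most expressed others of each role and those removed by the filter; of other lists, some of the up to 4 called genes with the smallest p are named. Replicates were compared first: all 69 pairs within a group and hour differed by more than sampling noise (chi-square per degree of freedom at least 20.7). Alternatives included DESeq2 1.42.0, limma on log2(TPM + 1) and log2(TPM + 0.1), other filters and scalings, a replicate block, hour sets and leaving out each library. The effects of these alternatives are given in the closing section. Each fit without 1 library kept the trend of scatter that was estimated from all 69 libraries. The 69 fits of a comparison also include those that left out a library of the group outside it.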

Additional observations from a re-analysis of the deposited data

Results flagged for a closer look

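Among 99 sets of 4 libraries of a gene in a group and hour, 7 held a library far from the other 3, where chance gives about 1 in 20 sets. In JNK7b at clock hour 20, replicate 2 had 4.01 CPM of Zap70 against 6.53 to 6.86 CPM in the others, and 0.972 CPM of Cxcr3 against 0.197 to 0.315 CPM. Replicate 3 of the same group and hour had 0.500 CPM of Prf1 against 0.0941 to 0.131 CPM. In JNK7b at clock hour 23, replicate 4 was high in 3 T cell genes, with 1.12 CPM of Cd247 against 0.181 to 0.225 CPM, 0.781 CPM of Trbc1 against 0.129 to 0.232 CPM and 1.04 CPM of Cxcr3 against 0.356 to 0.439 CPM. In control at clock hour 20, replicate 3 had 0.300 CPM of Cd247 against 0 to 0.0493 CPM. Over all hours none of these genes was called against control. With only clock hours 8, 11, 20 and 23, which include these libraries, Prf1 was called higher (edgeR adjusted p = 0.0188) and Zap70 lower (edgeR adjusted p = 0.0020) in JNK7b.

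The difference of Raet1e varied with clock hour for JNK7b against control (adjusted p = 7.0e-04 in the edgeR interaction test) and for JNK7b against JNK7a (adjusted p = 0.0187). Both were called in each of 69 fits that left out 1 library, with adjusted p between 1.0e-04 and 0.00425 and between 0.0103 and 0.0461.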

How the results depend on the processing

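The members called higher in JNK7a against control numbered 9, and 3 with a filter of a mean of at least 1 CPM, which left 7 members to test, 2 with only clock hours 8, 11, 20 and 23 and 4 with only clock hours 2, 5, 14 and 17. Leaving out 1 library gave 4 (without control 2 h replicate 1, or without JNK7a 20 h replicate 1) to 14 (without control 2 h replicate 2), and DESeq2 gave 11. The members higher in JNK7b against control numbered 5, and 2 with the replicate block, 2 with the filter of 1 CPM, 10 and 0 with those hour sets, and 3 (without JNK7b 14 h replicate 1) to 7 without 1 library. The 1 lower in JNK7b became 0 with the replicate block, with clock hours 2, 5, 14 and 17, with voom and with both TPM scales, and 0 to 2 without 1 library. For JNK7b against JNK7a, the 1 higher became 2 with clock hours 8, 11, 20 and 23. The 2 lower became 1 with the replicate block, the filter of 1 CPM, the filter by group, those hours, the additive design and both TPM scales, and 1 to 2 without 1 library. The rhythm call in control became 0 without a filter and 0 with the filter of 1 CPM, and that count in JNK7b went from 0 to 1 without a filter; rhythm counts were not run without single libraries. The cause of these changes was not tested, beyond the fewer genes or libraries left to test. The count lower in JNK7a and the interaction counts did not change under the alternatives run.

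With clock hours 8, 11, 20 and 23, Klrb1c in JNK7a turned to -0.27 and Eomes between JNK7b and JNK7a to 0.23 (log2); their groups and hours at 0 lie outside these hours. With clock hours 2, 5, 14 and 17, JNK7b against control turned to 0.11 for Zap70, -0.0066 for Klrk1 and -0.31 for Raet1e, and Il2rb between JNK7b and JNK7a to -0.59. Without 1 library, Il2rb in that comparison ran from -0.11 (without JNK7b 14 h replicate 1) to 0.12 (without JNK7b 14 h replicate 2), with -0.0023 without JNK7a 17 h replicate 1. The filter by group was chosen after seeing the data. Libraries with equal replicate numbers had little correlation of deviations (62 pairs, median -0.0086, 2 over 0.1). Those over 0.1 were both from JNK7a against control at clock hour 2, where each group had 2 libraries whose deviations mirror each other. Such correlations cannot show whether libraries were paired. The replicate block left 27 residual degrees of freedom, with 6 members higher in JNK7a.

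Depth limits most members: 28 of 36 had a median below 20 counts per library, and Gzmk, Ncr1 and Ifng, tested only without a filter, were not called.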

Other observations

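After the other results were seen, the deviation of each member's log2(CPM + 0.1) from the mean of its own group and hour was compared with that of Cd3g over 69 libraries. For 32 members, Pearson's r ran from -0.195 through a median of 0.241 to 0.479. With permutation within group and hour and Benjamini-Hochberg adjustment over the 32, 1 member passed by r, the chemokine receptor gene Cxcr3 (r = 0.479, adjusted permutation p = 0.0227; Spearman's rho = 0.537, adjusted permutation p = 0.00576), and r was 0.468 without the 2 libraries farthest from the median of Cd3g. By rho, Cd5 (rho = 0.464, adjusted permutation p = 0.0379; r = 0.457, adjusted permutation p = 0.0864) and Cd8a (rho = 0.464, adjusted permutation p = 0.0379; r = 0.412, adjusted permutation p = 0.0886) also passed. The values of a library share its depth and its cell content.

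Summed over the members other than Zap70, Raet1e and Cd4, the highest libraries were JNK7a 14 h replicate 1 (60.5 TPM), JNK7b 8 h replicate 3 (46.9 TPM), JNK7a 14 h replicate 3 (41.5 TPM) and JNK7a 2 h replicate 2 (38.6 TPM), against medians of 11.7 TPM in control, 17.4 TPM in JNK7a and 21.7 TPM in JNK7b. JNK7a 2 h replicate 2 also held the highest summed level of B and plasma cell markers, 1740 TPM, and of pan-leukocyte genes, 120 TPM. Its sums of hepatocyte markers, 121290 TPM, and of Kupffer cell and macrophage markers, 614 TPM, were the highest of all libraries too. Of the members left out of the first sum, Zap70 had means of 9.09, 7.73 and 7.30 TPM in control, JNK7a and JNK7b. Cd4 had 0.698, 1.25 and 0.392 TPM, and Raet1e 4.57, 1.37 and 9.40 TPM. Zap70 and Cd4, which were listed as T cell markers, had lower means in JNK7b than in control, so that sum does not stand for all listed markers. Which cells held the RNA of Zap70 and Cd4 was not tested.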
